A study of Homo sapiens with 6 samples.

Results

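The zinc finger genes described here are the protein-coding genes of human chromosome 19 whose symbol is ZNF followed by a number and at most 1 letter. The rule uses symbol, gene type and chromosome and no expression value. The rule found 247 genes among the 62700 gene entries of the deposited count tables, and another 18 ZNF symbols on the chromosome were left out because their annotated type was not protein coding. The samples were 6 RNA-seq libraries of OVCAR8, an established human ovarian carcinoma cell line of wild-type genotype, starved of serum overnight. In the Control group (3 libraries) the cells received PBS, with no treatment time in the labels. In the Leptin group (3 libraries) they received leptin, the adipose-tissue hormone, at 100 ng/ml for 24 h. The labels give 1 cell line and no separate cultures, so the p-values reflect how far these libraries scatter, and that scatter may be technical. In bulk RNA, a change within each cell and a change in the share of cells that express a gene cannot be told apart.

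The ZNF genes of chromosome 19 encode proteins with tandem C2H2 zinc fingers, short loops held by a zinc ion that each read a few bases of DNA. Many members also carry a KRAB domain, which binds the corepressor TRIM28 (KAP1). TRIM28 in turn brings the histone methyltransferase SETDB1 and heterochromatin proteins, and this machinery is best known for silencing transposable elements. The genes arose by repeated tandem duplication, so that neighbours in a cluster are often close copies of each other.

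Library depth ran from 15609425 to 18577775 counts assigned to genes. Of 12 ovarian carcinoma markers, 9 averaged at least 1 CPM (counts per 1000000 assigned counts, after scaling), among them PAX8, WT1, EPCAM and KRT8, while MUC16, MSLN and CDH1 were under 1 CPM. None of 6 immune markers and none of 4 adipocyte markers reached 1 CPM, 1 of 4 endothelial markers did (KDR), and 5 of 8 fibroblast markers did. The summed fibroblast markers took 462 to 658 CPM in Control libraries and 359 to 523 CPM in Leptin libraries, and the part of this shift in the results was not tested. Libraries of the Leptin group were less alike than those of the Control group. The chi-square statistic per gene between same-group libraries was 4.91 to 5.21 in the Control group, 17.6 between Leptin 2 and Leptin 3, and 40.5 and 34.2 between Leptin 1 and each of these. Leptin 1 therefore stood apart within its group, and results are given with and without it.

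Most members were expressed at a low level. Of the 247 members, 232 had enough counts to be tested, and 15 did not. In no library did an untested member reach more than 19 counts. ZNF723 and ZNF728 had 0 counts in all 6 libraries, and ZNF536, a regulator of neuronal differentiation, had 1 count in total. The median tested member had a mean of 10.0 CPM, against 19.4 CPM over all 15685 tested genes. Per kilobase of exon, member levels ran from 0.114 to 77.8 CPM with a median of 1.76 CPM, and 46 members lay under 1 CPM per kilobase while 11 lay above 10. The highest level per kilobase belonged to ZNF358, at 61.2 CPM in the Control mean and 94.3 CPM in the Leptin mean. Next came ZNF787 (26.4 and 44.2 CPM per kilobase) and ZNF428 (27.1 and 40.1 CPM per kilobase). Their transcripts sit at the GC-rich end of the family, at 69.1%, 70.3% and 61.3% GC against a member median of 42.2%.

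Few members passed the test. In the comparison of Leptin with Control libraries (edgeR quasi-likelihood test, Benjamini-Hochberg adjusted over all 15685 tested genes, threshold 0.05), 11 of 232 members were higher with leptin and 1 was lower. That is 4.74% higher against 5.71% of all tested genes, and 0.431% lower against 4.09%. In both directions together the members' 5.17% stands beside 9.81% of all genes. An unadjusted p under 0.05 was reached by 46 members (19.8%), against 27.6% of all genes. The median log2 fold change over the tested members was -0.03, with quartiles of -0.20 and 0.16, and over all tested genes it was 0.01. A log2 fold change smaller than 0.5 in size was found for 205 members, and 1 member reached 1. In 31 members every Leptin library lay above every Control library, and in 24 every Leptin library lay below. Together these members made up 23.7%, against 32.2% of all tested genes (16% above and 16.2% below).

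Summed over all 247 members, the family took 3385, 3299 and 3347 CPM in the Control libraries and 3464, 3749 and 3621 CPM in the Leptin libraries. The groups did not overlap, and the Leptin mean was 268 CPM above the Control mean. The members with the largest rises in CPM carried most of that gap. ZNF358 was 68.9 CPM higher in the Leptin mean, ZNF787 65.9 CPM, ZNF865 26.8 CPM, ZNF580 24.2 CPM and ZNF444 21.2 CPM. Without these 5 members the Leptin mean was 60.5 CPM above the Control mean and the groups overlapped. The Control libraries then took 2915 to 3015 CPM and the Leptin libraries 2931 to 3098 CPM. The 5 members were picked by these same differences and no drops were removed beside them, so a smaller gap was bound to follow. The largest drops in CPM were smaller than these rises, -8.65 CPM for ZNF486 (43.9 to 35.3 CPM in the group means) and -7.26 CPM for ZNF850 (22.6 to 15.3 CPM).

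The rises with the smallest adjusted p were found in ZNF581, ZNF575, ZNF554 and ZNF446. ZNF581 lies at chr19:55635459-55645623 on the plus strand (hg38) and had 19.98, 23.6 and 20.6 CPM in Control 1 to 3 and 32.1, 38.2 and 38.4 CPM in Leptin 1 to 3. Every Leptin library was above every Control library, and the log2 fold change was 0.76 ± 0.13 (SE; adjusted p = 0.00764, edgeR quasi-likelihood). Exons of CCDC106 and of the neighbouring member ZNF580 on the same strand cover 24.9% of its exon bases. Reads from these bases may not be told apart by gene, so its count is less certain. ZNF575 (chr19:43525497-43536130, plus strand) had 4.90, 3.48 and 3.48 CPM in Control 1 to 3 and 7.96, 7.82 and 7.66 CPM in Leptin 1 to 3. Its Leptin libraries lay close together and above all Control libraries, with a log2 fold change of 0.98 ± 0.21 (adjusted p = 0.0177, edgeR). ZNF554 (chr19:2819868-2836735, plus strand), a KRAB zinc finger gene with no exon overlap with another gene, had 8.54, 8.76 and 7.92 CPM in Control 1 to 3 and 10.7, 21.2 and 18.5 CPM in Leptin 1 to 3. Leptin 1 was the lowest Leptin library here, still above the Control libraries, and the log2 fold change was 0.99 ± 0.23 (adjusted p = 0.0229, edgeR). ZNF446 (chr19:58474017-58481230, plus strand), which encodes a protein with a SCAN domain for pairing with other SCAN proteins, had 9.65, 8.08 and 8.28 CPM in Control 1 to 3 and 12.8, 13.97 and 14.5 CPM in Leptin 1 to 3. The groups did not overlap, and the log2 fold change was 0.66 ± 0.15 (adjusted p = 0.0233, edgeR). Exons of other genes, SLC27A5 on the opposite strand and the member ZNF324 on the same strand among them, cover 60.4% of its exon bases, and 34.6% of its 100-base windows also occur in another gene. ZNF446 is therefore an uncertain call. Leaving out Control 1 or Control 3 ended the ZNF581 call (adjusted p = 0.0698 and 0.0655). ZNF575 passed without Leptin 1 and without Leptin 2, and ZNF554 and ZNF446 passed in the fit without Leptin 1 and in no other leave-out. In the fits where they did not pass, the adjusted p ran from 0.0547 to 0.107 for ZNF575, from 0.0703 to 0.116 for ZNF554 and from 0.0553 to 0.123 for ZNF446.

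**Figure D1:**
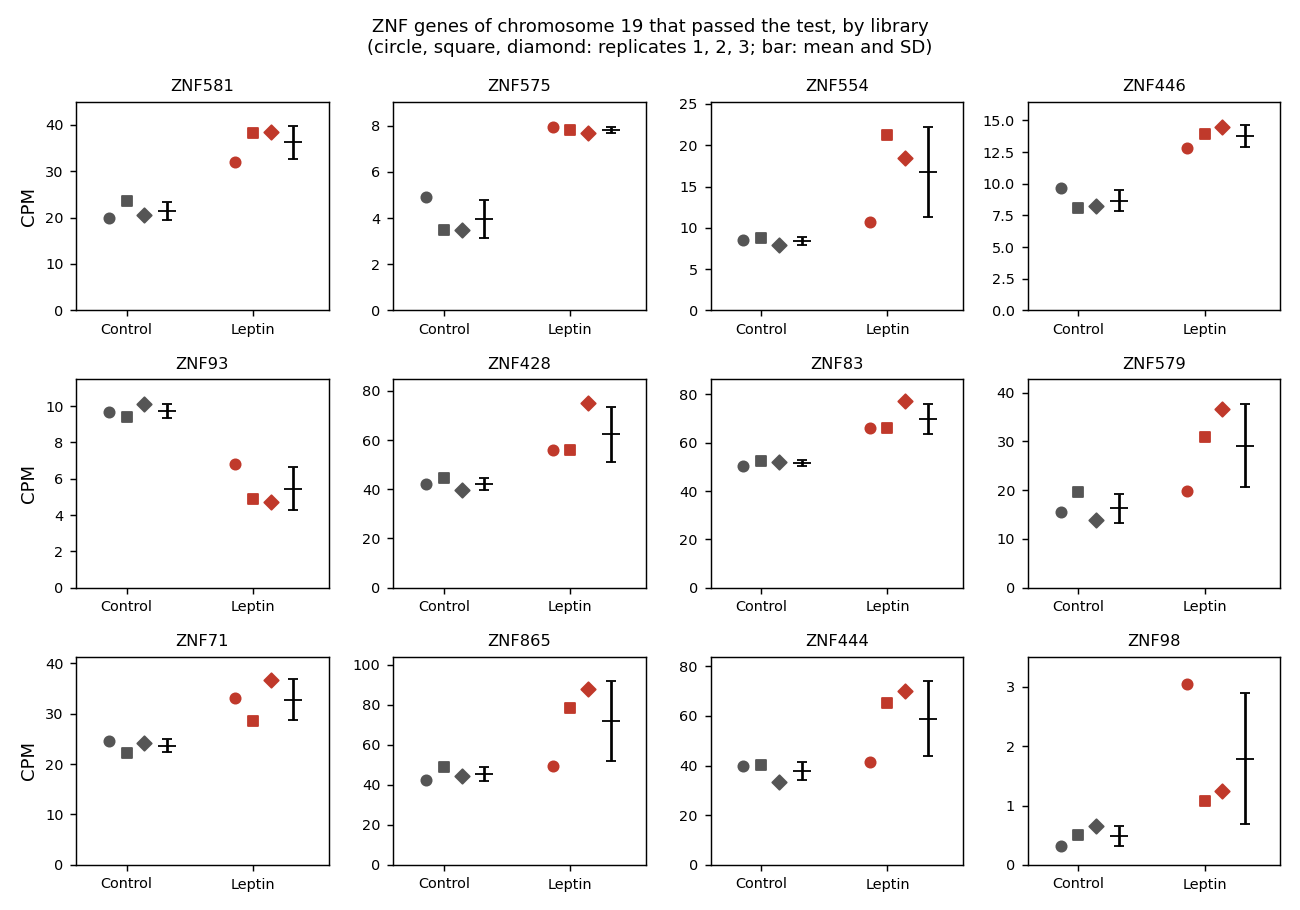
Level of each ZNF gene of chromosome 19 that passed the test, in CPM (vertical axis, from 0) for the 3 Control and 3 Leptin libraries, with the group mean and SD as bars. In each of the 12 panels the Leptin libraries lie on 1 side of the Control libraries, and Leptin 1 (red circle) is the Leptin library nearest to the Control group in every panel except those of ZNF575, ZNF71 and ZNF98.

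A further set of rises, in ZNF428, ZNF83 and ZNF71, was smaller in fold. ZNF428 (chr19:43607224-43619629, minus strand) had 42.1, 44.5 and 39.5 CPM in Control 1 to 3 and 55.8, 56.1 and 75.2 CPM in Leptin 1 to 3, and the log2 fold change was 0.57 ± 0.13 (adjusted p = 0.0260, edgeR). Exons of SRRM5 on the opposite strand cover 32.1% of its exon bases, and the counting command in the file headers sets no strand option. ZNF83 (chr19:52594060-52690559, minus strand), which encodes mainly zinc fingers, had 50.4, 52.5 and 52.0 CPM in Control 1 to 3 and 66.0, 66.3 and 77.1 CPM in Leptin 1 to 3. The Control libraries were nearly level, and this small rise of 0.44 ± 0.11 passed (adjusted p = 0.0302, edgeR). ZNF71 (chr19:56595300-56626481, plus strand), first described as a zinc finger gene induced by tumour necrosis factor in endothelial cells, had 24.5, 22.2 and 24.2 CPM in Control 1 to 3 and 33.0, 28.6 and 36.7 CPM in Leptin 1 to 3. Its groups did not overlap, with a log2 fold change of 0.47 ± 0.13 (adjusted p = 0.0418, edgeR). Each of ZNF428, ZNF83 and ZNF71 passed without Leptin 1 and without Leptin 2. In the remaining leave-outs the adjusted p was 0.0890 to 0.144 for ZNF428, 0.108 to 0.165 for ZNF83 and 0.149 to 0.159 for ZNF71.

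In ZNF579, ZNF865, ZNF444 and the uncalled ZNF358 the rise was carried by Leptin 2 and Leptin 3. ZNF579 (chr19:55576774-55580848, minus strand) had 15.4, 19.6 and 13.9 CPM in Control 1 to 3 and 19.8, 30.9 and 36.6 CPM in Leptin 1 to 3, with a log2 fold change of 0.84 ± 0.21 (adjusted p = 0.0338, edgeR). ZNF865 (chr19:55605647-55617269, plus strand) had 42.4, 49.1 and 44.2 CPM in Control 1 to 3 and 49.6, 78.4 and 88.1 CPM in Leptin 1 to 3, with 0.67 ± 0.18 (adjusted p = 0.0419, edgeR). ZNF444 (chr19:56132599-56160893, plus strand), which encodes a SCAN domain protein known from the control of an endothelial scavenger receptor gene, had 39.6, 40.3 and 33.5 CPM in Control 1 to 3 and 41.6, 65.1 and 70.3 CPM in Leptin 1 to 3, with 0.64 ± 0.18 (adjusted p = 0.0445, edgeR). Leptin 1 lay just above the highest Control library in each of these members. ZNF865 and ZNF444 fall outside the rule for named genes and were named after their values were seen. Just past the threshold lay ZNF358 (chr19:7515292-7521025, plus strand), the most abundant member, with 129, 133 and 120.2 CPM in Control 1 to 3 and 132, 228 and 229 CPM in Leptin 1 to 3. Leptin 1 fell within the Control range there, and the log2 fold change of 0.62 ± 0.18 did not pass (adjusted p = 0.0542, edgeR). It passed with DESeq2 (adjusted p = 0.01002) and with no filter on low counts (adjusted p = 7.40e-05, edgeR). Without Leptin 1 it was 0.83 (adjusted p = 6.18e-06). Exons of other genes, on the same and on the opposite strand, cover 34.1% of the exon bases of ZNF358. Of its 100-base windows 17.4% also occur in another gene, so its level is less certain. ZNF579, ZNF865 and ZNF444 passed without Leptin 1 and lost their call without any of the other libraries, with adjusted p of 0.0713 to 0.164, 0.111 to 0.191 and 0.124 to 0.202. ZNF787 (chr19:56087366-56121295, minus strand) had 101, 96.5 and 93.6 CPM in Control 1 to 3 and 87.1, 209.6 and 192 CPM in Leptin 1 to 3. Leptin 1 was its lowest library of all, and the log2 fold change of 0.75 ± 0.28 did not pass (adjusted p = 0.123, edgeR), while without Leptin 1 it was 1.04 (adjusted p = 7.92e-07).

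ZNF98 had the largest log2 fold change of the tested members and the largest adjusted p among the calls. It lies at chr19:22391019-22532485 on the minus strand and had 6, 8 and 11 counts in Control 1 to 3 and 53, 16 and 21 counts in Leptin 1 to 3, or 0.316, 0.497 and 0.660 CPM against 3.06, 1.07 and 1.25 CPM. The log2 fold change was 1.87 ± 0.53 (adjusted p = 0.0471, edgeR), and Leptin 1 held most of the counts of the Leptin group. Without Leptin 1 it was 1.23 (adjusted p = 0.0972), and it passed in none of the 6 leave-outs (adjusted p 0.0535 to 0.209). Of its 100-base windows 33.1% also occur in another gene, most often in ZNF492, so its count is less certain.

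The single member that fell was ZNF93 (chr19:19900913-19963464, plus strand), the KRAB zinc finger gene known for repressing young LINE-1 elements. It had 9.70, 9.38 and 10.1 CPM in Control 1 to 3 and 6.80, 4.88 and 4.69 CPM in Leptin 1 to 3. All Leptin libraries lay below all Control libraries, and the log2 fold change was -0.83 ± 0.19 (adjusted p = 0.0246, edgeR). It passed without Leptin 1 (adjusted p = 6.56e-04) and in no other leave-out (adjusted p 0.0664 to 0.121).

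How many members passed depended on the libraries used, and so did the count over all genes. Without Leptin 1, 44 of 234 tested members passed, 21 higher and 23 lower, where 29.6% of all genes passed (16% higher and 13.5% lower). The members' share then was 18.8%. Without Leptin 2 the count was 5 (4.84% of all genes), without Leptin 3 it was 1 (1.66%), without Control 2 it was 1 (2.25%), and without Control 1 or Control 3 it was 0 (0.711% and 1.05%). None of the 12 calls held in all 6 leave-outs. ZNF581 held in 4, and no other member in more than 2. Among the 23 members lower without Leptin 1 were ZNF730 (log2 fold change -1.22), ZNF724 (-1.15), ZNF93 (-1.03), ZNF563 (-0.84) and ZNF850 (-0.81), which were named after their values were seen. With all 6 libraries, DESeq2 called 16 of 245 members (6.53%, against 6.45% of all genes), limma-voom 8 of 232 (3.45% against 8.45%) and edgeR with no filter on low counts 20 of 245 (8.16% against 7.42%), and of the 12 calls they kept 12, 8 and 12. The members' share lay below that of all genes in the filtered edgeR and limma-voom fits and at or above it in the DESeq2 and unfiltered fits. In the latter 2 fits all genes were the 32825 and 32828 genes with any count, against 15685 in the filtered fits. The all-gene shares of the filtered and unfiltered fits therefore have unlike denominators, and the change of order is not read as a result about the members.

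Along the chromosome the members fall into clusters. Split wherever the starts of neighbouring members lie more than 1000000 bases apart, they form 16 groups, of which 8 hold at least 5 tested members. From the short-arm end these run from ZNF557 to ZNF846 (13 tested), ZNF653 to ZNF791 (20), ZNF101 to ZNF254 (34), ZNF302 to ZNF792 (5), ZNF565 to ZNF573 (26), ZNF575 to ZNF296 (23), ZNF175 to ZNF331 (39) and ZNF628 to ZNF446 (59). Neighbouring members had weakly correlated changes. Across 217 pairs of adjacent tested members the log2 fold changes correlated with r = 0.27 (Spearman rho 0.26), a description across genes that share libraries, GC content and partly sequence.

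**Figure D2:**
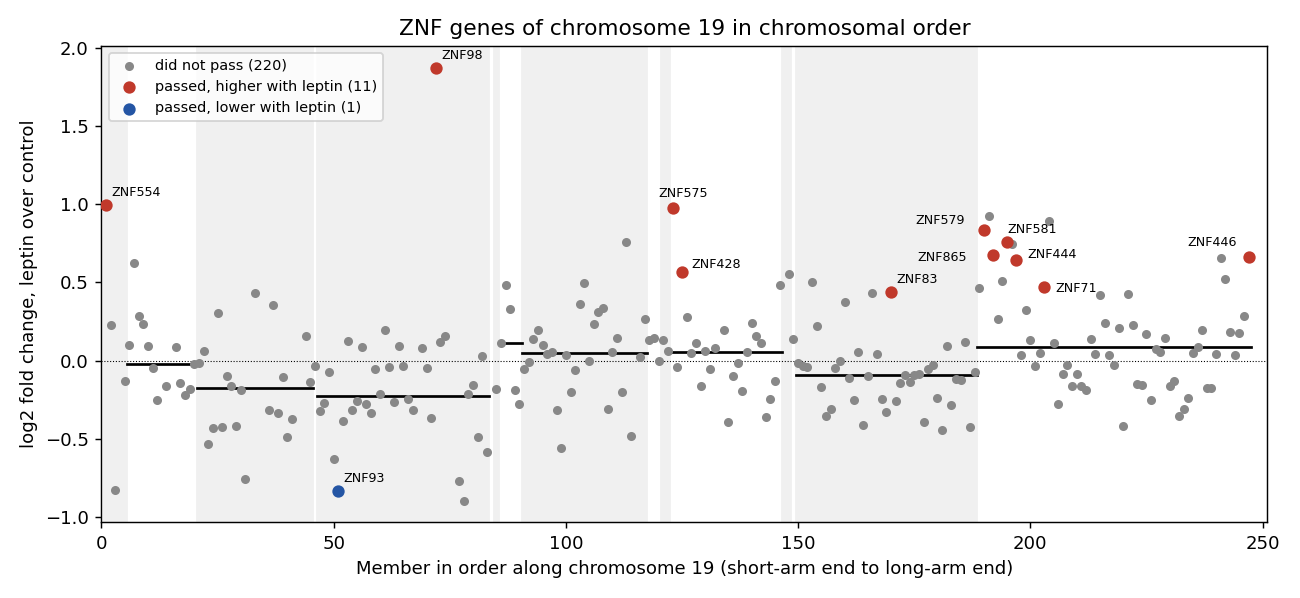
log2 fold change of Leptin over Control (vertical axis) for the 232 tested ZNF genes in their order along chromosome 19 (horizontal axis, rank among all 247 members). Shading alternates between position groups, black bars are medians of groups with at least 5 tested members, and coloured points passed the test. The medians of the ZNF653 to ZNF791 and ZNF101 to ZNF254 groups are the lowest, at -0.18 and -0.23, and 6 of the 11 rises lie in the last group.

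The lowest median belonged to the ZNF101 to ZNF254 group (chr19:19668796-24129968), which holds ZNF93, ZNF85, ZNF43 and ZNF91 and lies on the short arm next to the centromere. Its median log2 fold change was -0.23, with 25 of 34 tested members below 0. In 8 members all Leptin libraries lay below all Control libraries (ZNF253, ZNF93, ZNF85, ZNF43, ZNF730, ZNF724, ZNF681 and ZNF254), and in 1 all lay above. Together these made up 26.5% of the group, against 32.2% of all tested genes (16.2% below and 16% above). In that group 1 member passed as lower (ZNF93) and 1 as higher (ZNF98). Per library, the group's median log2 difference from the Control mean was 0.00, -0.05 and 0.08 in Control 1 to 3 and -0.04, -0.29 and -0.28 in Leptin 1 to 3. The downward shift was thus seen in Leptin 2 and Leptin 3, and Leptin 1 lay within the Control range. Its median stayed negative in all 6 leave-outs (-0.31 to -0.13). Without Leptin 1 it was the lower limit of that range. In that fit 8 of the group's 34 tested members were lower, where 13.5% of all genes were lower. Its transcripts are the poorest in GC of the 8 large groups, with a median of 37.4%. After each library's trend with GC was taken out, its median was -0.08, and 20 of 34 members were below 0.

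A similar pattern of libraries was found in the ZNF653 to ZNF791 group (chr19:11483427-12640098). Its median was -0.18, 15 of 20 tested members were below 0, and none passed. The median difference from the Control mean was 0.07, -0.08 and 0.08 in Control 1 to 3 and 0.01, -0.36 and -0.22 in Leptin 1 to 3, so Leptin 1 again lay within the Control range. Over the leave-outs the median ran from -0.34 to -0.11, and with the GC trend removed it was -0.13. The smallest adjusted p of the group was that of ZNF440 (chr19:11814273-11835216, plus strand), with 26.4, 24.2 and 24.5 CPM in Control 1 to 3 and 21.6, 19.2 and 15.1 CPM in Leptin 1 to 3, a log2 fold change of -0.42 ± 0.15 and an adjusted p of 0.0873 (edgeR). Without Leptin 1 ZNF440 passed (log2 fold change -0.55, adjusted p = 0.00636, edgeR). In that fit 5 of the group's 21 tested members passed as lower, where 13.5% of all genes were lower.

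At the long-arm end the sign differed. The ZNF628 to ZNF446 group (chr19:55476617-58481230), the largest, had a median of 0.08, with 20 of 59 members below 0. It held 6 of the 11 rises (ZNF579, ZNF865, ZNF581, ZNF444, ZNF71 and ZNF446), 10.2% of its tested members, against 5.71% of all genes. In 13 of its members all Leptin libraries lay above all Control libraries, and in 1 all lay below. Together these made up 23.7% of the group, against 32.2% of all tested genes (16% above and 16.2% below). The group's median difference from the Control mean was 0.039, -0.01 and -0.02 in Control 1 to 3 and 0.08, 0.23 and 0.045 in Leptin 1 to 3. Leptin 3 thus lay barely above Control 1, and Leptin 2 lay farthest from the Control libraries. The risen ZNF579, ZNF865, ZNF581 and ZNF444 lie close together near its start, and their transcripts have 65.9%, 71.1%, 59.6% and 57.8% GC, against 46.4% for the group's median. Leaving out 1 library moved the group's median between 0.06 and 0.15. Its count of rises fell to 0 without Control 1 or Control 3 (0.34% and 0.499% of all genes higher). It was 1 without Control 2 or Leptin 3 (1.3% and 0.909%) and 2 without Leptin 2 (2.52%). Without Leptin 1 it was 11, with 4 members lower, where 16% of all genes were higher and 13.5% lower. With the GC trend removed 1 member of the group passed and its median was 0.09.

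The remaining large groups had medians of either sign. The ZNF175 to ZNF331 group (chr19:51571283-53580269) had a median of -0.09 with 30 of 39 members below 0, and its median difference was 0.02, -0.12 and -0.17 in Leptin 1 to 3. The medians of the ZNF565 to ZNF573, ZNF575 to ZNF296 and ZNF302 to ZNF792 groups were 0.05, 0.06 and 0.11, and that of the ZNF557 to ZNF846 group was -0.02. With all 6 libraries no member passed in the ZNF557 to ZNF846, ZNF302 to ZNF792 or ZNF565 to ZNF573 groups. In the fit without Leptin 1, 16% of all genes were higher and 13.5% lower. Without Leptin 1, 2 members were higher and 1 lower in the ZNF557 to ZNF846 group, 3 higher and 1 lower in the ZNF565 to ZNF573 group, 3 higher and 0 lower in the ZNF575 to ZNF296 group, 1 higher and 4 lower in the ZNF175 to ZNF331 group, and 0 in the ZNF302 to ZNF792 group. The smallest p of the ZNF302 to ZNF792 group was that of ZNF181 (5.69, 5.96 and 5.22 CPM in Control 1 to 3 and 7.78, 7.35 and 8.49 CPM in Leptin 1 to 3; log2 fold change 0.49 ± 0.18, adjusted p = 0.104, edgeR). In the ZNF565 to ZNF573 group it was that of ZNF420, known as a KRAB protein that restrains p53 (6.01, 6.27 and 6.18 CPM in Control 1 to 3 and 8.07, 9.36 and 8.61 CPM in Leptin 1 to 3; 0.49 ± 0.17, adjusted p = 0.0852, edgeR), and without Leptin 1 it passed (0.54, adjusted p = 0.0372).

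**Figure D3:**
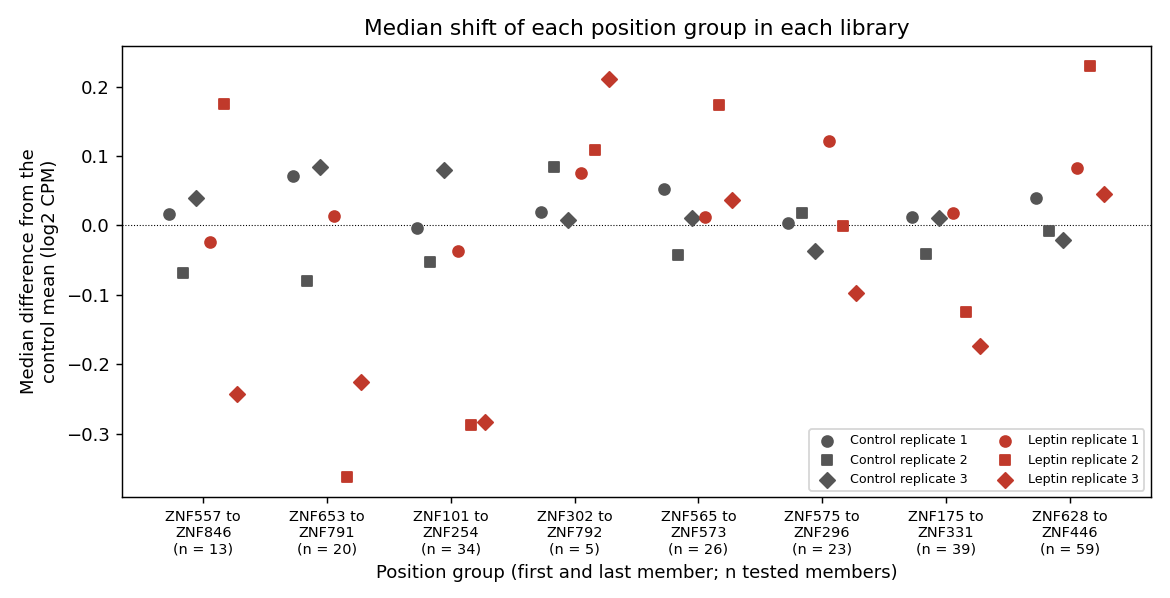
Median log2 CPM difference from the Control mean (vertical axis) over the tested members of each position group with at least 5 of them, for each of the 6 libraries. In the ZNF101 to ZNF254 group Leptin 2 and Leptin 3 lie at -0.29 and -0.28 and Leptin 1 at -0.04, inside the Control range of -0.05 to 0.08.

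The members of the ZNF101 to ZNF254 group shared a promoter feature that the choice of members did not use and that was also found in other groups. RefSeq gives a start site for 216 of the 247 members (GRCh38.p14, 27305 promoters in all), and the 250 bases before each start were searched for short motifs on both strands. The letters CCAAT, the core of the box bound by the factor NF-Y, occurred in 110 member promoters (50.9%), against 33.0% of all promoters. In the ZNF101 to ZNF254 group all 29 promoters with a sequence held it, 20 of them at least 2 times over both strands. Each had it at least 1 time on the strand of the gene. The nearest match on either strand lay 15 to 70 bases before the start (median 53). The small ZNF554 to ZNF77 group also held it in all 5 promoters, each at least 2 times over both strands and at least 1 time on the strand of the gene. Its nearest matches on either strand lay 22 to 204 bases before the start (median 61), and its 4 tested members had a median log2 fold change of 0.05. The ZNF653 to ZNF791 group held the letters in 22 of 24, the ZNF628 to ZNF446 group in 30 of 54, and the ZNF175 to ZNF331 and ZNF565 to ZNF573 groups in 8 of 32 and 4 of 25. To show this shared arrangement, the 220 bases from 250 to 31 before the start are given for the named members of the ZNF101 to ZNF254 group, followed by 2 risen members of other groups for contrast. Capitals mark CCAAT or, where it lies on the other strand, ATTGG. The windows are ZNF93 (chr19:19900696-19900915, plus strand), ZNF85 (chr19:20923001-20923220, plus strand), ZNF43 (chr19:21836213-21836432, minus strand), ZNF91 (chr19:23395502-23395721, minus strand), ZNF554 (chr19:2819618-2819837, plus strand) and ZNF579 (chr19:55580879-55581098, minus strand), each written 5′ to 3′ along its gene.
ZNF93: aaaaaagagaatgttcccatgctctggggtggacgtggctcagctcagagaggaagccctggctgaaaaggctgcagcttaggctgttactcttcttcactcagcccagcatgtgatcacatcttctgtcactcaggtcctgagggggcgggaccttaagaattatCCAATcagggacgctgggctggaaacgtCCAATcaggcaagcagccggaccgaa
ZNF85: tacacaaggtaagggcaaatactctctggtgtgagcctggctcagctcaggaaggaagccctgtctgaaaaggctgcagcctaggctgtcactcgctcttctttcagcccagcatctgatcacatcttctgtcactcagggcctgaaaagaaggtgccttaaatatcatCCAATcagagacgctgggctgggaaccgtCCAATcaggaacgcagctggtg
ZNF43: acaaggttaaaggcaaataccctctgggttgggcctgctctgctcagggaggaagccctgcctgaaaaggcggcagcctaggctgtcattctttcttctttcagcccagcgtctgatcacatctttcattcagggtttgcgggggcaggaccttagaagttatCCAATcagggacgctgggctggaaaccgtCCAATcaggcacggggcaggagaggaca
ZNF91: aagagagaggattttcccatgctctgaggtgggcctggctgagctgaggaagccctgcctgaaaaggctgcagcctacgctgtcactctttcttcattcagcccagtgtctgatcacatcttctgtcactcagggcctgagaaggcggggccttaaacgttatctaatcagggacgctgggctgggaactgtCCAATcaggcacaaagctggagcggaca
ZNF554: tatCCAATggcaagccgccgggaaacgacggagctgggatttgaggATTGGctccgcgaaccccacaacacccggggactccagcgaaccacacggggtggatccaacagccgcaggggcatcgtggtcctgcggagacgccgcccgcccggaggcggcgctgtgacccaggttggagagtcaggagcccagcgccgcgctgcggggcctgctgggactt
ZNF579: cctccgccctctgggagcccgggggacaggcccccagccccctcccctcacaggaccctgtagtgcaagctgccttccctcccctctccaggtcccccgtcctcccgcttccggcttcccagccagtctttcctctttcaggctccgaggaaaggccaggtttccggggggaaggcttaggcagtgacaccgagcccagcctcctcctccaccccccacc

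In ZNF93, ZNF85 and ZNF43 a pair of CCAAT boxes lies near the 3′ end of the window, each box followed by the letters cag, and the ZNF91 window holds 1 box. The 4 windows are alike along most of their length. Their pairwise identity was 76.8% to 82.6% over the 6 pairs, against 42.2% to 48.8% for the 9 pairs that include ZNF554 or ZNF579. Promoters of recent copies are not independent observations, so a motif share within a cluster counts 1 inherited sequence many times. ZNF554 has its boxes farther out, the nearest 204 bases before the start, and ZNF579 has none in this window. Other letters searched were GGGCGG (SP1 box; 64.8% of member promoters, 42.3% of all), CCGGAA (ETS core; 40.7% and 14.8%), TATAAA (1.85% and 11.1%), TGACGTCA (cAMP response element; 2.31% and 1.77%) and the NRF1 site (10.2% and 5.53%). CCGGAA occurred in 20 of the 29 promoters of the ZNF101 to ZNF254 group. A match describes letters and shows no binding.

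Over the whole family, members with and without the CCAAT letters had medians near 0. The 100 tested members with it had a median log2 fold change of -0.08, with 2 higher and 1 lower, and the 104 without it a median of 0.05, with 8 higher. Outside the ZNF653 to ZNF791 and ZNF101 to ZNF254 groups the medians were 0.01 for 56 members with it and 0.05 for 102 without it. No test was made of these differences, since paralogs share both the promoter and the cluster.

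Among members with a described role, ZNF91, ZNF85, ZNF43 and ZNF274 had lower Leptin means, as ZNF93 had, but none of these 4 passed with all 6 libraries. ZNF91 (chr19:23304991-23395471, minus strand), which represses SVA elements, had 19.6, 21.7 and 24.97 CPM in Control 1 to 3 and 22.4, 18.4 and 16.3 CPM in Leptin 1 to 3. Its groups overlapped, with a log2 fold change of -0.21 ± 0.15 (adjusted p = 0.402, edgeR). ZNF85 had 16.6, 16.5 and 16.9 CPM in Control 1 to 3 and 13.4, 13.2 and 13.1 CPM in Leptin 1 to 3, with -0.33 ± 0.13 (adjusted p = 0.119). ZNF43 had 32.6, 28.3 and 33.2 CPM in Control 1 to 3 and 28.1, 21.7 and 25.9 CPM in Leptin 1 to 3, with -0.31 ± 0.13 (adjusted p = 0.152). In these 2 paralogs of ZNF91 every Leptin library lay below every Control library, but neither passed with all 6 libraries. Without Leptin 1 ZNF43 passed (log2 fold change -0.41, adjusted p = 0.0256) and ZNF85 did not (-0.35, adjusted p = 0.0720). ZNF274 (chr19:58183029-58213562, plus strand), which recruits SETDB1 to the 3′ ends of zinc finger genes, had 40.9, 42.1 and 37.1 CPM in Control 1 to 3 and 39.0, 34.1 and 33.4 CPM in Leptin 1 to 3, with -0.17 ± 0.11 (adjusted p = 0.357).

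Members best known as genes silenced by promoter methylation in carcinomas did not pass. ZNF382 had 13.6, 12.3 and 12.7 CPM in Control 1 to 3 and 12.6, 14.2 and 13.1 CPM in Leptin 1 to 3 (log2 fold change 0.04 ± 0.14, adjusted p = 0.871, edgeR) and ZNF471 had 7.70, 6.21 and 7.74 CPM in Control 1 to 3 and 7.15, 6.82 and 7.19 CPM in Leptin 1 to 3 (-0.03 ± 0.18, adjusted p = 0.925). ZNF331 had 23.3, 20.4 and 24.7 CPM in Control 1 to 3 and 22.7, 20.8 and 21.6 CPM in Leptin 1 to 3 (-0.07 ± 0.13, adjusted p = 0.755). ZNF677 had 26.0, 27.3 and 27.6 CPM in Control 1 to 3 and 29.6, 27.7 and 29.1 CPM in Leptin 1 to 3 (0.09 ± 0.11, adjusted p = 0.624). The groups of ZNF382, ZNF471 and ZNF331 overlapped, and those of ZNF677 lay apart by a small margin. ZNF671 had 3.95, 3.73 and 3.84 CPM in Control 1 to 3 and 5.30, 4.54 and 3.15 CPM in Leptin 1 to 3 (0.17 ± 0.25, adjusted p = 0.694), ZNF154 had 0.791, 0.621 and 1.08 CPM in Control 1 to 3 and 1.10, 0.468 and 0.653 CPM in Leptin 1 to 3 (-0.16 ± 0.48, adjusted p = 0.867) and ZNF582 had 6.59, 5.09 and 6.84 CPM in Control 1 to 3 and 5.59, 7.35 and 6.06 CPM in Leptin 1 to 3 (0.03 ± 0.20, adjusted p = 0.939).

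None of the other named regulators passed. ZNF350 (ZBRK1), a partner of BRCA1 in repression, had 5.38, 7.02 and 6.24 CPM in Control 1 to 3 and 9.05, 6.08 and 6.53 CPM in Leptin 1 to 3 (0.22 ± 0.21, adjusted p = 0.543, edgeR). ZNF224, a KRAB repressor of the aldolase A gene, had 7.12, 7.52 and 7.62 CPM in Control 1 to 3 and 6.63, 4.61 and 5.64 CPM in Leptin 1 to 3 (-0.39 ± 0.19, adjusted p = 0.216). ZNF649, a KRAB repressor acting on serum response element and AP-1 reporters, had 9.17, 8.32 and 10.4 CPM in Control 1 to 3 and 9.63, 7.95 and 9.50 CPM in Leptin 1 to 3 (-0.04 ± 0.17, adjusted p = 0.905). ZNF146, whose protein consists of fingers only, had nearly equal group means, with 62.4, 58.4 and 66.6 CPM in Control 1 to 3 and 52.2, 68.2 and 66.2 CPM in Leptin 1 to 3 (-0.01 ± 0.12, adjusted p = 0.983). ZNF180 had 10.6, 11.5 and 10.3 CPM in Control 1 to 3 and 9.86, 7.95 and 11.8 CPM in Leptin 1 to 3 (-0.13 ± 0.17, adjusted p = 0.673).

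The members' median lay below that of the rest of their chromosome and near that of the ZNF genes elsewhere. Of the 755 other tested protein-coding genes of chromosome 19, 136 were higher and 5 lower (18.7%; 9.81% of all genes), with a median log2 fold change of 0.29 against -0.03 for the members. Of the 227 tested ZNF genes on other chromosomes, 11 were higher and 2 lower, with a median of 0.00. GC content of the longest transcript also differed between these sets, with medians of 42.2% for the members, 44.9% for the other ZNF genes and 60.1% for the other genes of the chromosome. Fold change and GC content moved together in these libraries, with rho = 0.39 over 15249 tested genes and rho = 0.35 (r = 0.49) over the 232 members, as descriptions across genes.

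**Figure D4:**
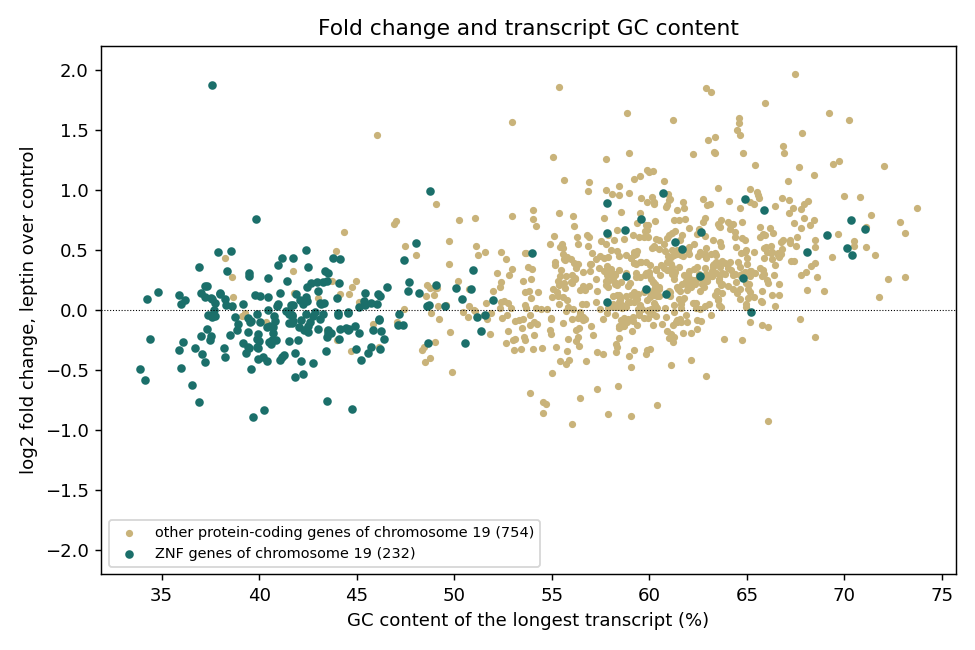
log2 fold change of Leptin over Control (vertical axis) against GC content of the longest annotated transcript in percent (horizontal axis) for the 232 tested ZNF genes of chromosome 19 and for other tested protein-coding genes of the chromosome. Of the ZNF genes, 175 lie in the lower 2 GC classes around a fold change of 0, and the 20 in the top GC class have a median of 0.54. Genes beyond the vertical axis are not drawn, and no ZNF gene is among them.

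The members were also set beside other genes of like GC content. All tested genes with a GC value were split into 5 classes of equal size. In the class lowest in GC, up to 41.0%, the 90 members had a median of -0.10, the other genes -0.13 and the 6 other protein-coding genes of chromosome 19 0.04. In the next class, up to 45.8%, the 85 members had -0.04, the other genes -0.10 and the 14 of chromosome 19 0.14. The 31 members of the middle class had 0.04, the other genes -0.03 and the 41 of chromosome 19 0.04. In the fourth class, up to 58.1%, the 6 members had 0.28, the other genes 0.08 and the 188 of chromosome 19 0.17. In the top class the 20 members had 0.54, with 6 higher, and the 3030 other genes had 0.29, with 530 higher. The 505 of chromosome 19 in that class had 0.33, with 111 higher. The members' median thus lay below that of their chromosome in the lowest 2 classes and above it in the top 2. These are descriptions with no test of the difference. When the GC trend of each library was removed, 4 members passed, all higher (ZNF581, ZNF554, ZNF83 and ZNF44, the last named after its values were seen), where 5.53% of all genes passed, and the median over members was 0.07. ZNF581 then had a log2 fold change of 0.55 (adjusted p = 0.0231, edgeR). ZNF93 had -0.70 (adjusted p = 0.0563). The GC-rich abundant members came out near 0, ZNF358 with 0.04 and ZNF787 with 0.08, and so did the called ZNF865 with 0.01 (adjusted p = 0.959). Of the other called members, ZNF579 had 0.38 (adjusted p = 0.168), ZNF428 0.30 (0.153), ZNF444 0.49 (0.122), ZNF446 0.48 (0.0878), ZNF71 0.42 (0.0736), ZNF575 0.73 (0.0707) and ZNF98 2.01 (0.0509). The cause of the GC trend was not tested.

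The machinery through which KRAB zinc finger proteins act was read from a list of 25 genes for TRIM28, its partners and heterochromatin factors. Of these 24 were tested, since ZFP57 had 0 counts in all libraries. None was higher (5.71% of all genes) and 5 were lower (20.8%, against 4.09% of all genes), and the list's median log2 fold change was -0.24 with 21 of 24 genes below 0. UHRF1, which guides maintenance methylation to newly copied DNA, had 98.1, 92.9 and 103 CPM in Control 1 to 3 and 74.4, 41.5 and 57.3 CPM in Leptin 1 to 3 (log2 fold change -0.76 ± 0.17, adjusted p = 0.0235, edgeR). CBX5, the heterochromatin protein HP1 alpha, had 301, 309 and 301 CPM in Control 1 to 3 and 232, 204 and 156 CPM in Leptin 1 to 3 (-0.62 ± 0.14, adjusted p = 0.0229). DNMT1, the maintenance DNA methyltransferase, had 311, 326 and 319 CPM in Control 1 to 3 and 234, 252 and 225 CPM in Leptin 1 to 3 (-0.43 ± 0.11, adjusted p = 0.0302). Of the falls, UHRF1 and DNMT1 are also known for expression in dividing cells. PPHLN1, a HUSH complex subunit, had 46.7, 48.2 and 45.3 CPM in Control 1 to 3 and 39.0, 31.3 and 35.0 CPM in Leptin 1 to 3 (-0.41 ± 0.12, adjusted p = 0.0468). RCOR1, the CoREST scaffold that works with the demethylase KDM1A, had 72.8, 83.6 and 80.1 CPM in Control 1 to 3 and 64.0, 58.2 and 56.5 CPM in Leptin 1 to 3 (-0.40 ± 0.11, adjusted p = 0.0407).

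With all 6 libraries neither TRIM28 nor SETDB1 passed. TRIM28, which lies on chromosome 19, had 677, 692 and 687 CPM in Control 1 to 3 and 702, 862 and 830.3 CPM in Leptin 1 to 3 (log2 fold change 0.22 ± 0.12, adjusted p = 0.261, edgeR), all Leptin libraries above all Control libraries, and with the GC trend removed its log2 fold change was -0.14. Without Leptin 1 TRIM28 passed as higher (log2 fold change 0.29, adjusted p = 0.0249). SETDB1 had 35.3, 36.6 and 34.7 CPM in Control 1 to 3 and 36.6, 32.3 and 29.8 CPM in Leptin 1 to 3 (-0.11 ± 0.12, adjusted p = 0.581). The 5 lower calls depended on the libraries. There were 12 without Leptin 1 (with TRIM28 the 1 higher gene), 3 without Leptin 2, and 0 without Leptin 3 or without any 1 Control library. Of all genes, 13.5% were lower without Leptin 1, 2.32% without Leptin 2 and 0.748% without Leptin 3. Without 1 Control library the share lower was 0.371% to 0.946% of all genes. After removal of the GC trend the list had 3 lower genes, UHRF1 and DNMT1 among them, where 2.82% of all genes were lower. CBX5 (adjusted p = 0.0521, edgeR), PPHLN1 (0.167) and RCOR1 (0.0988) no longer passed.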

How the data were processed

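Per the submitters' processing notes, reads were aligned with HISAT2 2.0.5 to hg38. Counting was done by the authors per gene over exons of GENCODE 44, using featureCounts 2.0.1 without a strand option, per the file headers (the notes name version 1.5.0-p3). The deposited values are raw counts. The library kit was directional per the labels' protocols, so reads of overlapping genes on opposite strands cannot be told apart here.

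Symbols were matched for all 62700 identifiers, and gene type came from GENCODE 29. Counts were tested with edgeR 4.0.16 (R 4.3.3): genes kept by filterByExpr (minimum count 10, total 15), TMM scaling, robust quasi-likelihood fit over all genes, threshold 0.05. The common biological coefficient of variation was 0.150. CPM values use TMM-scaled library sizes. GC content is that of the longest GENCODE 29 transcript. Exon overlap was read from the files' exons, and shared sequence as identical 100-base windows of transcripts. Alternatives used other scalings and filters, DESeq2 1.42.0, limma 3.58.1, GC offsets (lowess span 0.3), and 1 library left out. The fits were tested on simulated data. Promoter sequences are RefSeq's (GRCh38.p14).

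Genes named were the called members (the 8 with the smallest p per direction), the 3 with the highest CPM per kilobase, 18 members with described roles, the smallest p in each position group of at least 5 tested members, the calls nearest the threshold on either side, and TRIM28, SETDB1 and called corepressor genes. The members, lists and this rule were chosen with earlier results of these data known. Protein features of the members were not analysed here. Counts carry counting error beside the spread between libraries, and members with few counts are less precise.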

Additional observations from a re-analysis of the deposited data

How the results depend on the processing

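The main limits are 3 libraries per group, a Leptin 1 library that differs from the other Leptin libraries, and a GC trend that divides the groups. Members with few counts, close paralogs or shared exons are the least certain. The family median ran from -0.06 to 0.01 over the leave-outs, the count of higher members from 0 to 21 and of lower members from 0 to 23. The corepressor counts ran from 0 to 12 lower and from 0 to 1 higher. Over all genes the share higher ran from 0.34% to 16% and the share lower from 0.371% to 13.5%. Fewer libraries were used in each leave-out, and the cause of the differences was not tested.

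With no filter on low counts 4 of 245 members were lower (2.92% of all genes), and with DESeq2 2 of 245 were lower (2.56%). limma-voom called 7 of 232 higher (4.5% of all genes). With the GC trend removed 4 of 232 members were higher and 0 lower (2.72% and 2.82% of all genes). The median was then 0.068, and 3 corepressor genes were lower. At an adjusted p under 0.01, 1 member was higher, 0 lower, and 0 corepressor genes were lower. The share of all genes at that threshold was not counted. Among the 94 tested members without exon overlap 5 were higher and 0 lower (5.71% and 4.09% of all genes), and the median was -0.10.

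Titles give both groups the repeat numbers 1 to 3, and the labels state no pairing. Same-numbered libraries did not deviate together (r = -0.05, 0.01 and -0.11). With 3 libraries per group this check cannot show whether they were paired, so the fit was also run with a replicate block. With the replicate block 8 members were higher and 1 lower (4.9% and 3.41% of all genes), and 2 corepressor genes lower. With the replicate block and the GC trend removed, 4 were higher and 0 lower (2.96% and 3.04% of all genes), with a median of 0.060.

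Sign changed for these uncalled genes. With the GC trend removed, without and with the block, TRIM28 gave -0.14 and -0.14, ZNF146 0.12 and 0.11, ZNF331 0.0065 and 0.0091, ZNF471 0.091 and 0.095, and ZNF649 0.083 and 0.083. ZNF180 gave 0.00016 with the GC trend removed. With total counts only ZNF382 gave -0.0028 and ZNF582 -0.016. Over the leave-outs ZNF146 ran from -0.079 to 0.096, ZNF154 from -0.56 to 0.073, ZNF382 from -0.0094 to 0.087, ZNF471 from -0.13 to 0.016, ZNF582 from -0.088 to 0.11, ZNF649 from -0.11 to 0.044 and ZNF671 from -0.014 to 0.35.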

Other observations

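Another 18 genes of chromosome 19 carry a symbol that starts with ZFP, ZSCAN, ZIK, ZIM or ZBTB, as related C2H2 genes do. The symbol match also took in ZFP36, which encodes a CCCH and not a C2H2 zinc finger protein. ZFP36 was tested and did not pass (log2 fold change 0.07, adjusted p = 0.886, edgeR). Of the 18 genes, 12 were tested, with a median log2 fold change of 0.17. Among the tested genes 2 were higher with leptin (edgeR quasi-likelihood, adjusted over all tested genes, of which 5.71% were higher). ZSCAN18, a SCAN domain gene at the long-arm end, had 41.6, 46.2 and 45.2 CPM in Control 1 to 3 and 52.1, 67.4 and 67.2 CPM in Leptin 1 to 3 (log2 fold change 0.49 ± 0.12, adjusted p = 0.0343). ZFP30, a KRAB zinc finger gene within the span of the ZNF565 to ZNF573 group, had 28.3, 25.7 and 33.4 CPM in Control 1 to 3 and 37.7, 41.0 and 39.6 CPM in Leptin 1 to 3 (0.44 ± 0.12, adjusted p = 0.0490). In both genes every Leptin library lay above every Control library.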
